A study of Mus musculus with 15 samples.

Results

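The respiratory chain and the ATP synthase of the inner mitochondrial membrane were followed through 102 genes in mouse colon, 89 of them nuclear and 13 carried by mitochondrial DNA. They were every row of the deposited log2 CPM table (CPM are counts scaled to the size of the library; the table holds 17531 genes) whose symbol begins with Nduf, Uqcr, Cox4 to Cox8 or Atp5, is one of Sdha to Sdhd, or is a protein-coding mt- gene. The nuclear genes were 45 of complex I (38 subunits and 7 Ndufaf assembly factors), 4 of complex II, 8 of complex III, 15 of complex IV and 17 of complex V. The mitochondrial genes were 7 of complex I, 1 of complex III, 3 of complex IV and 2 of complex V. Genes were placed by name, so Ndufa4 and Ndufa4l2 stand with complex I although the NDUFA4 protein is found with complex IV. Atp5sl stands with complex V although it is Dmac2 in RefSeq, a factor of complex I assembly. Cox6a2, Cox7b2, Cox8c and 6 named pseudogenes match the same names but were not in the log2 CPM table, and had at most 5 counts in a library.

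Electrons from NADH enter the chain at complex I and those from succinate at complex II, then pass through coenzyme Q, complex III, cytochrome c and complex IV to oxygen, while complexes I, III and IV pump protons that drive ATP synthesis by complex V. Complexes I, III, IV and V are built from subunits of both genomes, and complex II from nuclear genes alone. Colonocytes, the absorptive cells of the colon surface, are known for burning the bacterial fatty acid butyrate in their mitochondria, and several complex IV subunits have a form used mostly in muscle.

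Colons came from mice of 8 to 12 weeks with 3 alleles of Tert, the reverse transcriptase subunit of telomerase: a knockout (KO, TERT-/-), a knock-in whose product has no enzyme activity (VAA), and wild type (WT, TERT+/+). Each genotype had 3 libraries after dextran sulfate sodium (DSS, which injures the colonic epithelium) and 2 untreated libraries. The treated mice drank 3% DSS for 4 days, then plain water for another 4, and their colons were collected on day 8. The labels do not state that the libraries of a group came from separate animals, so the P values given here speak of the spread among these libraries only.

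Library totals ran from 10.6 to 17.5 M counts. Tert had 0 or 1 counts in each KO library, against 7 to 29 in VAA libraries and 23 to 40 in WT libraries. By the Y-linked gene Ddx3y, 1 untreated KO library and 1 untreated WT library were male, and the other libraries were female. Epcam, the epithelial surface marker of colon, had 7878 to 17681 counts per library. VAA DSS replicate 3 stood apart, with the lowest total and 13.59% of its counts in 3 genes of identical values. It was the lowest of the 9 DSS libraries for 79 of the 89 nuclear respiratory chain genes (88.76%), and for 29.62% of all genes tested. Results that rest on it are therefore given with and without it. All 102 genes passed the expression filter, among 17477 tested by edgeR with Benjamini-Hochberg adjustment, and a gene is called at an adjusted P under 0.05. For a called gene, groups without overlap in the same libraries describe the values and are no further support.

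Per kilobase of transcript, every mitochondrial gene stood above every nuclear one. The highest, with levels in CPM per kb averaged over the 15 libraries, were mt-Co1 at 7773, mt-Atp6 at 4721 and mt-Co3 at 4401, which encode subunits of complexes IV, V and IV. The lowest mitochondrial level was 979 CPM per kb, of mt-Nd3, a complex I subunit. Among nuclear genes the highest were Atp5b, the catalytic beta subunit of ATP synthase, at 540, Uqcrc1, a core protein of complex III, at 355, and Atp5a1, the alpha subunit of ATP synthase, at 338 CPM per kb. The transcript lengths used for these were 1916, 533 and 2572.5 bases. The rank of Uqcrc1 depends on the short length used for it and is uncertain. At the other end stood forms used in other tissues or conditions: Cox4i2 at 0.547, Ndufa4l2 at 0.642, Cox8b at 2.30 and Cox6b2 at 3.12 CPM per kb.

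Averaged over the 3 genotypes, most nuclear respiratory chain genes stood slightly higher in DSS colon, and few by much. In VAA, with all libraries, most of them lay below 0. Above 0 in all 3 genotypes at once were 33 of 89 (37.1%), beside 31.1% of all genes tested. In the DSS effect averaged over the 3 genotypes (9 DSS and 6 untreated libraries), 26 nuclear genes and 1 mitochondrial gene rose, 4 nuclear genes fell, and 71 of the 102 were not called. Of all genes tested, 22.5% rose and 20.0% fell in the same comparison, so the share that rose was near the background and the share that fell was below it. The median log2 fold change was 0.17 over the 89 nuclear genes and 0.05 over the 13 mitochondrial genes, against 0.01 over all genes tested. Of the nuclear genes 71 were above 0, and 81 lay within 0.5 log2 units of 0. Markers of other cell types moved with this comparison. Of 10 neutrophil markers 9 rose, as did 9 of 10 leukocyte markers, while 11 of 12 colonocyte and 10 of 10 smooth muscle markers fell. Neutrophil markers summed to 288 to 357 scaled CPM in KO DSS libraries against 59.1 to 90.3 in KO untreated libraries, 355 to 541 against 57.9 to 108 in VAA, and 367 to 412 against 58.0 to 70.2 in WT. Colonocyte markers summed to 4151 to 6276 against 9715 to 11032 in KO, 2918 to 4327 against 9220 to 10169 in VAA, and 3122 to 4172 against 9030 to 9621 in WT. Their part in the result was not tested. In bulk tissue a change in the share of cells of a type and a change in RNA per cell cannot be told apart. The count of 31 called genes was 18 without KO untreated replicate 1, beside 35.5% of all genes called, and 56 without VAA DSS replicate 3. Without that VAA library 50 of 88 nuclear genes tested rose and 4 fell, beside 27.6% and 25.2% of all genes (52.7% in either direction).

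Summed over the 89 nuclear genes, the level in scaled CPM (CPM divided by the library's scaling factor) was 9979, 9669 and 10687 in KO DSS libraries and 7409 and 9008 in KO untreated libraries. It was 8646, 9044 and 6228 in VAA DSS libraries, against 8153 and 8538 in VAA untreated libraries. WT DSS libraries had 9057, 9519 and 9813, and WT untreated libraries had 7660 and 7610. The DSS libraries stood above the untreated ones without overlap in KO and WT, whereas in VAA replicate 3 lay below both untreated libraries. The 13 mitochondrial genes took 2.89% to 3.56% of counts in KO DSS libraries and 3.25% to 3.93% in KO untreated libraries. In VAA the shares were 2.49% to 3.82% under DSS and 3.64% to 3.85% untreated, and in WT 3.50% to 3.89% and 3.30% to 3.64%.

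The ratio of mitochondrial to nuclear counts of these genes was lower under DSS in each genotype. It was 3.85, 3.79 and 2.94 in KO DSS libraries against 4.08 and 4.43 in KO untreated libraries. In VAA it was 3.06, 4.28 and 4.05 under DSS against 4.53 and 4.30 untreated, and in WT 3.92, 3.69 and 3.84 under DSS against 4.59 and 4.14 untreated. Within each genotype the groups did not overlap, although VAA DSS replicate 2, at 4.28, came close to the lower VAA untreated library and stood above 1 untreated library of KO and 1 of WT. With reads of near-identical nuclear copies added to the mitochondrial genes, the ratio ran from 3.13 to 4.46 in DSS libraries and from 4.28 to 4.96 in untreated ones. No test was made of these sums.

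**Figure D1:**
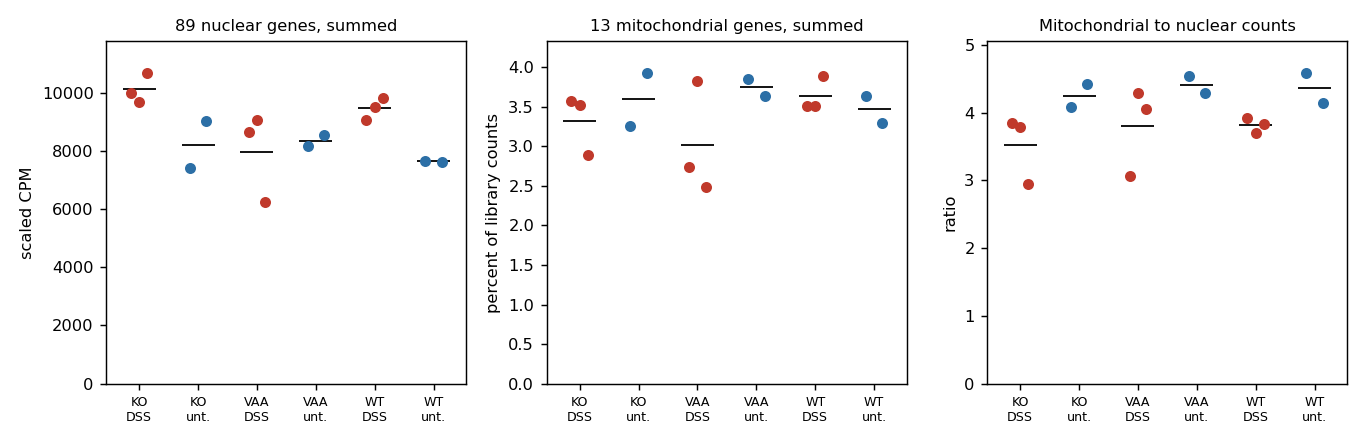
Summed level of the 89 nuclear genes in scaled CPM, share of library counts in the 13 mitochondrial genes in percent, and the ratio of mitochondrial to nuclear counts, with 1 point per library and a bar at each group mean (red, DSS, 3 libraries; blue, untreated, 2 libraries). The ratio lies lower under DSS than untreated in each genotype, between 2.94 and 4.28 in DSS libraries and between 4.08 and 4.59 in untreated ones.

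In complex I, whose arm in the matrix takes electrons from NADH, 12 of 38 nuclear subunits rose in the averaged DSS effect, 1 fell and 25 were not called. These counts, and those of the other complexes below, stand beside 22.5% of all genes that rose and 20.0% that fell. Ndufs3 (mm10 chr2:90894634-90904827), a core subunit of that arm, had 66.1, 82.8 and 78.0 scaled CPM in KO DSS libraries and 52.2 and 54.7 in KO untreated libraries. It had 70.1, 73.8 and 74.5 in VAA DSS libraries and 57.6 and 60.2 in VAA untreated libraries. WT DSS libraries had 71.9, 75.1 and 77.9, and WT untreated libraries had 55.1 and 48.7. Every DSS library stood above every untreated library. The averaged log2 fold change of Ndufs3 was 0.45 ± 0.07 (SE; edgeR adjusted P = 0.00014). Reads may be shared with a processed pseudogene, Gm12251, of 98.6% identity over 792 bases, which had 757 counts per library on average against 949 for Ndufs3. With both summed the averaged log2 fold change was 0.59 ± 0.09 (edgeR adjusted P = 0.00018).

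The sources used here do not give the strand setting of the counting, so reads from Ndufs3 and Kbtbd4, whose exons overlap on opposite strands by 88 bases, cannot be told apart there. Ndufb6 and Ndufb7, accessory subunits of the membrane arm, rose by 0.41 ± 0.09 and 0.34 ± 0.08 log2 units (edgeR adjusted P of 0.0019 and 0.0033). The same limit holds for Ndufb6, of whose 659 exonic bases 257 overlap Smim27 on the opposite strand. Ndufa4 rose by 0.53 ± 0.14 (edgeR adjusted P = 0.0076). Among the 7 assembly factors Ndufaf4, which acts early in building the complex, rose by 0.70 ± 0.19 (edgeR adjusted P = 0.0093), and 6 were not called. Ndufa4l2, a form known as a hypoxia target, rose by 1.32 ± 0.35 at a level of 1 to 17 counts per library (edgeR adjusted P = 0.0086), and this call was lost with sex as a covariate (1.03, adjusted P = 0.06).

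Ndufa1 (mm10 chrX:37187588-37191163), a small subunit needed to assemble the membrane arm, went the other way. It had 29.2, 24.9 and 30.8 scaled CPM in KO DSS libraries and 31.6 and 42.3 in KO untreated libraries. VAA DSS libraries had 19.1, 24.0 and 15.8 and VAA untreated libraries 38.4 and 38.8, and WT DSS libraries had 24.3, 23.2 and 27.0 and WT untreated libraries 31.1 and 33.2. All 9 DSS libraries lay below all 6 untreated ones. The averaged log2 fold change of Ndufa1 was -0.57 ± 0.10 (edgeR adjusted P = 0.00055), and it stayed between -0.65 and -0.48 over the 22 alternative settings run.

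In complex II, the succinate dehydrogenase shared with the tricarboxylic acid cycle, Sdhd, a membrane anchor subunit, rose by 0.33 ± 0.11 in the averaged DSS effect (edgeR adjusted P = 0.029), and that call was lost in 7 of 22 settings, at adjusted P up to 0.099: with limma, and without KO untreated replicate 1, VAA DSS replicate 1, or any 1 of the VAA and WT untreated libraries. Averaged log2 fold changes of the other members were 0.01 ± 0.09 for Sdha, the flavoprotein subunit, 0.04 ± 0.08 for Sdhb, the iron-sulfur subunit, and 0.14 ± 0.06 for Sdhc, the other anchor, with edgeR adjusted P of 0.94, 0.71 and 0.096.

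In complex III, which passes electrons from coenzyme Q to cytochrome c, 4 of 8 nuclear subunits rose and none of the 8 was below 0. Uqcrq (mm10 chr11:53427922-53430831), which encodes a small subunit, had 94.2, 92.2 and 106 scaled CPM in KO DSS libraries and 56.0 and 64.0 in KO untreated libraries. It had 96.4, 88.1 and 70.3 in VAA DSS libraries, against 59.8 and 62.3 in VAA untreated libraries, and 83.5, 96.1 and 94.9 in WT DSS libraries, against 56.7 and 60.5 in WT untreated libraries. Again no DSS library overlapped an untreated one. Uqcrq rose by 0.61 ± 0.08 log2 units, a 1.52-fold change (edgeR adjusted P = 5.1e-05), and was called in each genotype on its own. Uqcrfs1, the Rieske iron-sulfur protein, rose by 0.39 ± 0.09 (edgeR adjusted P = 0.0029). Outside the naming rule Cyc1, the cytochrome c1 subunit of the same complex, rose by 0.42 ± 0.10, and Cycs, the mobile cytochrome c, by 0.92 ± 0.18 (edgeR adjusted P of 0.0055 and 0.0013).

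In complex IV, cytochrome c oxidase, 2 of 15 nuclear subunits rose, 2 fell and 11 were not called, with a median of 0.13. Cox7a1 (mm10 chr7:30184144-30186078), the subunit form used in heart and skeletal muscle, had the lowest averaged log2 fold change of the 102 genes. It had 14.4, 10.9 and 13.4 scaled CPM in KO DSS libraries against 15.3 and 19.5 in KO untreated libraries. VAA DSS libraries had 4.09, 6.94 and 4.42 against 15.2 and 15.2 in VAA untreated libraries, and WT DSS libraries had 5.47, 4.37 and 6.37 against 13.7 and 17.8 in WT untreated libraries. The groups did not overlap in any genotype, but in VAA and WT the highest DSS library, at 6.94, stood far below the lowest untreated one, at 13.7, while in KO the nearest libraries had 14.4 and 15.3. The averaged log2 fold change of Cox7a1 was -1.17 ± 0.14 (edgeR adjusted P = 2.6e-05). Cox6b2, known as a testis form, fell by 0.78 ± 0.21 on the log2 scale at 10 to 31 counts per library (edgeR adjusted P = 0.010).

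The widely expressed forms of complex IV moved less. Cox5b and Cox5a rose by 0.20 ± 0.07 and 0.28 ± 0.10 (edgeR adjusted P of 0.026 and 0.040), but these calls did not last. Cox5b lost its call in 7 of 22 settings, among them without KO DSS replicate 3, KO untreated replicate 1, VAA untreated replicate 1 or either WT untreated library (0.16 to 0.20, adjusted P from 0.050 to 0.094). Cox5a lost it in 15 settings, 13 of them with 1 library left out, and kept it without VAA DSS replicate 3 or KO untreated replicate 2. The averaged log2 fold change was 0.37 ± 0.15 for Cox7a2, the general counterpart of Cox7a1, and -0.15 ± 0.10 for Cox7a2l, a related supercomplex factor. It was -0.02 ± 0.07 for Cox4i1, -0.12 ± 0.07 for Cox6a1, 0.13 ± 0.09 for Cox6b1 and -0.04 ± 0.08 for Cox8a, none of them called (edgeR adjusted P from 0.060 to 0.85). Cox4i2, a form known from lung and low oxygen, had at most 12 counts in a library and a log2 fold change of 0.42 ± 0.46 (edgeR adjusted P = 0.48).

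Cox8b, a form of muscle and brown fat, was high in 2 libraries of different genotypes. The counts were 43 in KO DSS replicate 2 and 78 in WT DSS replicate 1, while the remaining 13 libraries had 1 to 8, and Cox8b was not called (averaged log2 fold change 1.20 ± 0.94, edgeR adjusted P = 0.33). The same libraries held 196 and 119 counts of Ucp1, the uncoupling protein of brown fat, and 218 and 310 of Adipoq, a hormone gene of fat cells. Ucp1 had 0 counts in the other 13 libraries and Adipoq 1 to 74. Summed over 10 adipocyte markers these 2 libraries had 512 and 576 scaled CPM, against 207 to 319 in the others. The part of this in the level of Cox8b was not tested.

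In complex V, the ATP synthase, 6 of 17 nuclear genes rose and 1 fell. Atp5g3 and Atp5g1 encode the same c-ring peptide. Atp5g3 had 276, 265 and 267 scaled CPM in KO DSS libraries against 176 and 222 in KO untreated libraries, 266, 281 and 180 in VAA DSS libraries against 198 and 204 in VAA untreated libraries, and 252, 272 and 290 in WT DSS libraries against 182 and 181 in WT untreated libraries. VAA DSS replicate 3 alone among the DSS libraries lay within the untreated range. Atp5g3 rose by 0.43 ± 0.10 and Atp5g1 by 0.39 ± 0.10 (edgeR adjusted P of 0.0027 and 0.0062). Atp5a1, the alpha subunit, rose by 0.29 ± 0.09 (edgeR adjusted P = 0.014), a call lost without KO untreated replicate 1 (0.25, adjusted P = 0.052). Atp5g2, the other c-ring gene, had 73.4 counts per library on average beside 1266 of an identical processed pseudogene, Gm10175, so its own level is uncertain. Atp5sl fell by 0.46 ± 0.10 on the log2 scale (edgeR adjusted P = 0.0027).

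**Figure D2:**
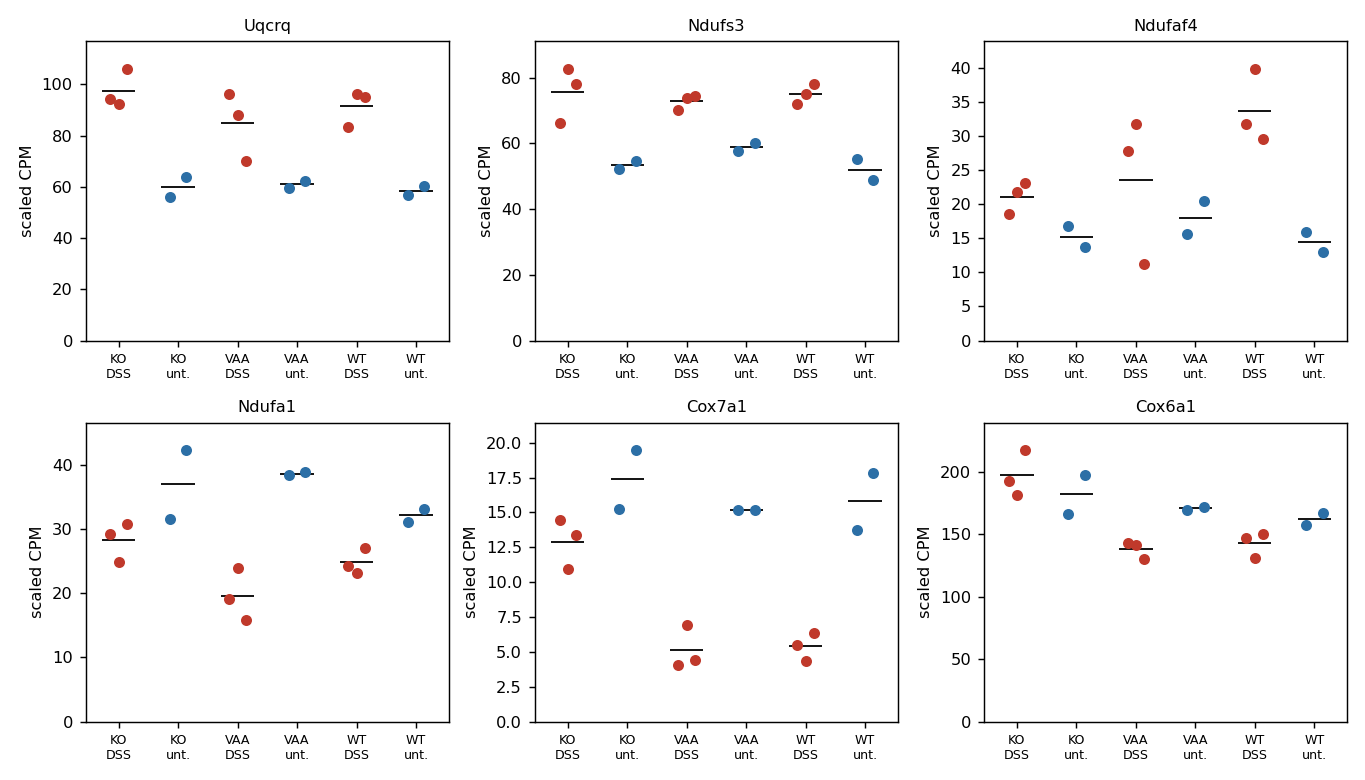
Scaled CPM of 6 nuclear genes, with 1 point per library and a bar at each group mean (red, DSS, 3 libraries; blue, untreated, 2 libraries; each axis starts at 0). Uqcrq and Ndufs3 lie higher under DSS in each genotype and Ndufa1 lower, whereas for Cox7a1 the KO DSS libraries, at 10.9 to 14.4, lie above the VAA and WT DSS libraries, at 4.09 to 6.94.

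Windows around the starts of these genes were read for the binding motifs of regulators known for respiratory genes. The windows, from RefSeq on GRCm38.p6, run from 250 bases before to 50 after the annotated start and were found for 75 of the 89 nuclear genes. The motif of NRF1, nuclear respiratory factor 1, was taken as GCGCANGCGC and that of ETS-family factors, NRF2 (GABP) among them, as CCGGAAG, on either strand. The motifs can share no more than an end base. The NRF1 motif lay in 19 of 75 windows (25.3%), against 5.19% of 27025 windows of all genes and 9.67% of 12101 windows of genes in the log2 CPM table. The ETS motif lay in 17 windows (22.7%), against 9.93% and 16.8%. One or the other lay in 32 of the 75 windows (42.7%), against 24.3% of windows of genes in the log2 CPM table. By averaged DSS effect, 12 of 21 windows of genes that rose held one or the other. The counts were 20 of 50 for genes not called and 0 of 4 for genes that fell. A link between these motifs and the DSS effect was not tested. A match is a run of letters and not a measured site. The windows below are of 2 genes that rose (Ndufs3 and Atp5g3), of Cox6a1, which differed between genotypes under DSS, and of Cox7a1, which holds neither motif. Capitals mark the motifs, each window is 300 bases written 5′ to 3′ on the strand of its gene, and they lie at chr2:90904672-90904971 (minus strand), chr2:73911277-73911576 (minus), chr5:115348909-115349208 (minus) and chr7:30183921-30184220 (plus).
Ndufs3: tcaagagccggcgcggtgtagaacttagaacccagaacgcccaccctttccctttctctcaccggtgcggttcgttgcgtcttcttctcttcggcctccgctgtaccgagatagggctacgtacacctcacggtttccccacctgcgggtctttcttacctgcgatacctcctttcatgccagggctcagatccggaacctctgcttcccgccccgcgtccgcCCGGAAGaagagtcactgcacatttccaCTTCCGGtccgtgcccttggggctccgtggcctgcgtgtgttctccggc
Atp5g3: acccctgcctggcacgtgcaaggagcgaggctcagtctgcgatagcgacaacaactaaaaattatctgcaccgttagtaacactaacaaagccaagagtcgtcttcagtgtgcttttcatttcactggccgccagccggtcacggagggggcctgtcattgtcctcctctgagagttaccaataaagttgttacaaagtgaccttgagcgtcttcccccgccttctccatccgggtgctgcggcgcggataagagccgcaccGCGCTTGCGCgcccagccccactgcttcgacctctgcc
Cox6a1: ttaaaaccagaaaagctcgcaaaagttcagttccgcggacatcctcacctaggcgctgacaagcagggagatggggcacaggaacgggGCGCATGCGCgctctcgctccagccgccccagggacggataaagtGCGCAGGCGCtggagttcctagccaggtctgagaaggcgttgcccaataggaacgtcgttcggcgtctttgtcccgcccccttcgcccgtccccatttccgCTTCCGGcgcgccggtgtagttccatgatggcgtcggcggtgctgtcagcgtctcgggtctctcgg
Cox7a1: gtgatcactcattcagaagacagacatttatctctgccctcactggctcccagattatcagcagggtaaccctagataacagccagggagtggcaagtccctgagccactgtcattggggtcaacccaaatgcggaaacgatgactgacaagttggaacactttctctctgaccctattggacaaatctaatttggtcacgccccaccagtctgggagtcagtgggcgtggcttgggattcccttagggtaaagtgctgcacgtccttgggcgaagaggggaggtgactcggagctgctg

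The mitochondrial genes, which encode subunits of complexes I, III, IV and V, showed little change under DSS. Averaged log2 fold changes ran from -0.29 for mt-Co3 to 0.30 for mt-Nd1, and 8 of 13 were above 0. mt-Nd6, the complex I subunit carried on the light strand, was the gene that was called. It had 725, 719 and 574 scaled CPM in KO DSS libraries and 455 and 610 in KO untreated libraries. VAA DSS libraries had 636, 647 and 672 and VAA untreated libraries 554 and 623, and WT DSS libraries had 667, 687 and 603 and WT untreated libraries 534 and 500. In KO the groups overlapped, and in VAA and WT they did not. mt-Nd6 rose by 0.27 ± 0.08 log2 units (edgeR adjusted P = 0.018), a call lost without KO untreated replicate 1 (0.21, adjusted P = 0.062), VAA untreated replicate 1 (0.25, 0.060) or WT untreated replicate 2 (0.26, 0.055). Without VAA DSS replicate 3, mt-Nd1 was called as well (0.35 ± 0.14, edgeR adjusted P = 0.047). In no single genotype was a mitochondrial gene called (13 of 13 not called in each, with 1, 2 and 1 at an unadjusted P under 0.05 in KO, VAA and WT, and 0, 1 and 0 called by DESeq2).

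Counts of some mitochondrial genes were split with copies of mitochondrial DNA in the nuclear genome. On chromosome 1 the pseudogene Gm28661 (mm10 chr1:24614885-24615565, minus strand) matched mt-Co2 at all 681 aligned bases, and Gm29216 (chr1:24615706-24616197, minus strand) matched the last 483 bases of mt-Co1 but for 1. The stretches below are bases 1063 to 1122 of mt-Co1, from the reference transcripts, where the capital marks the base that differs, and bases 1 to 60 of mt-Co2 with its copy, where none does.
mt-Co1: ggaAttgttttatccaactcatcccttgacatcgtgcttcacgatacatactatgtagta
Gm29216: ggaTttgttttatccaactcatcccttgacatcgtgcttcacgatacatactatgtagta
mt-Co2: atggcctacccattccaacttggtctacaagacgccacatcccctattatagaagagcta
Gm28661: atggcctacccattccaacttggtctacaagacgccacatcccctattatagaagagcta

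mt-Co2 encodes the complex IV subunit that takes electrons from cytochrome c. Its counts in scaled CPM were 2943, 2538 and 872 in KO DSS libraries and 2085 and 2430 in KO untreated libraries, while Gm28661 had 754, 1012 and 2355, and 855 and 1781. Summed, the pair had 3697, 3550 and 3227 in KO DSS libraries and 2941 and 4211 in KO untreated libraries. KO DSS replicate 3 thus had the lowest mt-Co2 of the 15 libraries and a sum within the range of the others. The log2 fold change of mt-Co2 for DSS in VAA was 0.11 as deposited and -0.38 ± 0.20 for the sum (edgeR adjusted P = 0.20), and that of the averaged DSS effect was 0.13 as deposited and -0.11 ± 0.11 for the sum (adjusted P = 0.46). The direction of mt-Co2 is therefore uncertain. Of the 13 genes, 7 had a copy of at least 99% identity over at least 200 bases, and the copies other than these 2 had at most 326 counts.

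**Figure D3:**
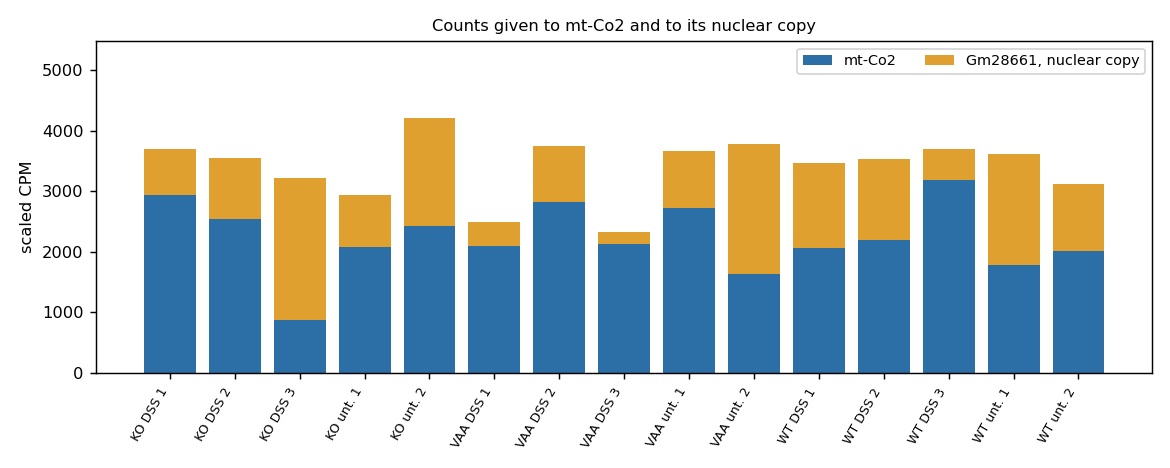
Scaled CPM counted on mt-Co2 (blue) and on its nuclear copy Gm28661 (orange), stacked, in each of the 15 libraries. The split between them varies from library to library, and KO DSS replicate 3 has 872 on mt-Co2 and 2355 on the copy.

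DSS was also compared with untreated colon within each genotype. The counts of these separate tests do not show whether the response depended on the Tert allele, which the interaction given below asked. In KO colon 4 nuclear genes rose and none fell, beside 5.59% and 5.06% of all genes. They were Uqcrq (0.70 ± 0.14), Ndufs3 (0.50 ± 0.11), Ndufb7 (0.48 ± 0.14) and Cox5b (0.41 ± 0.11), with edgeR adjusted P of 0.0078, 0.017, 0.041 and 0.037. The median over nuclear genes was 0.29, against 0.00 over all genes, and 78 of 89 were above 0. Leaving out KO untreated replicate 1 gave 0 calls in place of 4, and leaving out KO untreated replicate 2, KO DSS replicate 2 or KO DSS replicate 3 gave 1. Leaving out KO DSS replicate 1 gave 2, and leaving out VAA DSS replicate 3, which enters the shared estimate of spread, gave 22 that rose, beside 10.8% of all genes in that fit (5.59% with all libraries). For the fits that left out a KO library, the share of all genes called is not given here. Fewer calls there cannot be told from fewer calls over all genes. Cox7a1 had a log2 fold change of -0.43 ± 0.24 in KO (edgeR adjusted P = 0.28). Sdh genes lay between 0.20 and 0.32, with edgeR adjusted P of at least 0.11.

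In VAA colon 1 nuclear gene rose and 4 fell, beside 10.9% and 9.54% of all genes (20.4% in either direction). Cox7a1 fell by 1.55 ± 0.25 on the log2 scale, Ndufa1 by 0.97 ± 0.18, Atp5sl by 0.73 ± 0.18 and Ndufa3, an accessory subunit of complex I, by 0.46 ± 0.13, while Uqcrq rose by 0.48 ± 0.14. The edgeR adjusted P values were 0.00069, 0.0017, 0.010, 0.025 and 0.025. The median over nuclear genes was -0.08, against 0.06 over all genes, and 34 of 89 were above 0. Without VAA DSS replicate 3 the median was 0.06, 55 of 88 were above 0, and 8 genes rose and 4 fell, beside 15.5% and 12.8% of all genes (28.2% in either direction), with Ndufa4 among those that rose (0.54, adjusted P = 0.023). Where a count below stands without the share of all genes, a change in these genes cannot be told from a general one. The count of 5 was 17 without VAA DSS replicate 2, when 1 rose and 16 fell and 22.2% of all genes were called in either direction. It was 2 without VAA untreated replicate 2, where Atp5sl (-0.56, adjusted P = 0.13), Uqcrq (0.51, 0.11) and Ndufa3 (-0.47, 0.11) were not called, and in a fit of the VAA libraries alone it was 1. Without VAA untreated replicate 1, Uqcrq (0.45, 0.16) and Ndufa3 (-0.46, 0.12) lost their calls, as did Uqcrq without VAA DSS replicate 1 (0.38, 0.085).

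In WT colon 15 nuclear genes rose and 2 fell, beside 14.1% and 12.5% of all genes (26.6% in either direction). Of complex I, Ndufs3 rose by 0.53 ± 0.11, Ndufb6 by 0.68 ± 0.15, Ndufa4 by 0.91 ± 0.24 and Ndufaf4 by 1.22 ± 0.33. Sdhd rose by 0.61 ± 0.19, Uqcrq by 0.64 ± 0.14, Uqcrfs1 by 0.57 ± 0.15, Atp5g3 by 0.58 ± 0.17, Atp5g1 by 0.57 ± 0.17 and Atp5f1, a stalk subunit of ATP synthase that shares 192 bases of sequence with Wdr77, by 0.64 ± 0.21. Ndufc2, Ndufa2, Ndufa10, Ndufs4 and Ndufs8, also of complex I, rose by 0.41 to 0.65. Cox7a1 fell by 1.54 ± 0.25 on the log2 scale and Atp5sl by 0.60 ± 0.18. The edgeR adjusted P values ran from 0.00072 for Cox7a1 to 0.041 for Ndufs8. The median over nuclear genes was 0.31, against -0.01 over all genes, and 74 of 89 were above 0. With 2 untreated libraries the counts were fragile: the 17 calls were 2 without either WT untreated library (beside 10.9% and 12.1% of all genes), 6 without WT DSS replicate 2 (16.3%), 11 without WT DSS replicate 3 (22.9%) and 40 without VAA DSS replicate 3, when 37 rose, beside 20.3% of all genes, and 3 fell, beside 17.2%. Uqcrq lost its call without WT untreated replicate 1 (0.58, adjusted P = 0.063) and Ndufs3 without WT untreated replicate 2 (0.45, 0.073), whereas Cox7a1 was called in each of its 14 settings, with a highest adjusted P of 0.0145.

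**Figure D4:**
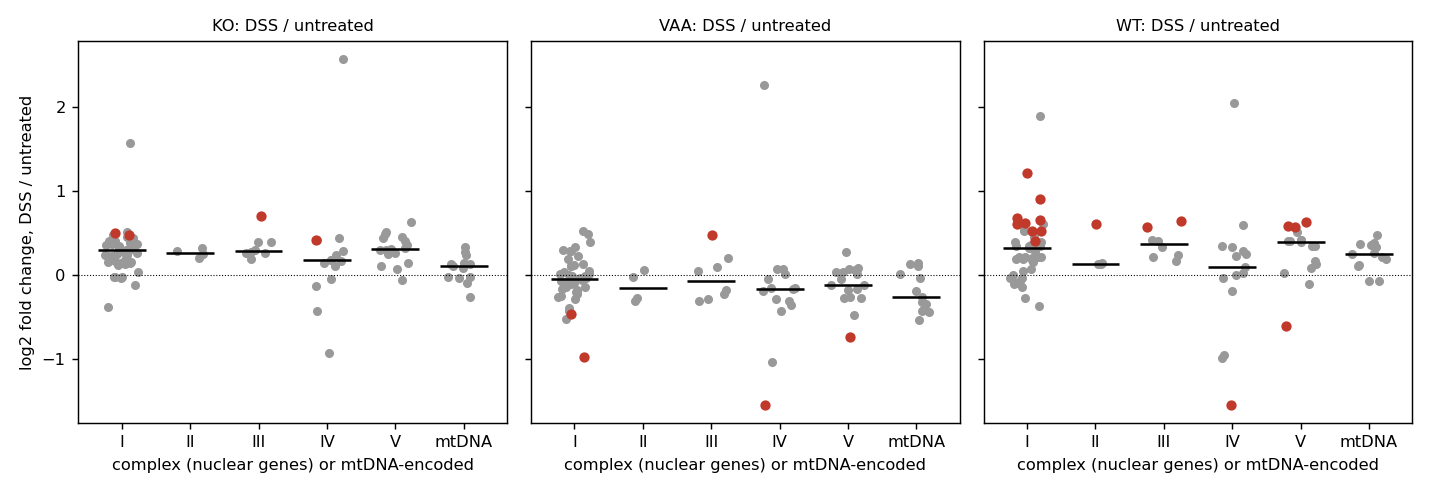
Log2 fold change of DSS over untreated for each of the 102 genes, by complex for nuclear genes and together for mitochondrial genes, in KO, VAA and WT (red, called by edgeR at a Benjamini-Hochberg adjusted P under 0.05; grey, not called; bars, medians). Nuclear medians lie above 0 in KO (0.29) and WT (0.31) and below it in VAA (-0.08).

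Across the genotypes 33 of 89 nuclear genes (37.1%) had log2 fold changes above 0 in all 3, beside 31.1% of all genes tested, and 7 (7.87%) had them below 0 in all 3, beside 27.3%. Called in at least 1 genotype were 21 of 89 (23.6%), a smaller share than the 35% of all genes. Uqcrq was called in each. Uqcrq, Ndufs3, Ndufb7 and Ndufa4l2 had DSS libraries above the untreated ones without overlap in each genotype (4.49% of nuclear genes, beside 9.45% of all genes), and 2 genes had them below (2.25%, beside 8.35%). The difference in DSS effect between genotypes was tested as an interaction. For KO minus WT, edgeR called 0 of 102 genes and 0% of all genes, 3 members (2.94%) had an unadjusted P under 0.05, beside 9.93% of all genes, and DESeq2 called 0 members. The lowest P belonged to Cox7a1, with an interaction of 1.11 ± 0.35 log2 units (unadjusted P = 0.0070, adjusted P = 0.32). For VAA minus WT, edgeR called 0 members and DESeq2 called 0, and 13 members (12.7%) had an unadjusted P under 0.05, beside 7.20% of all genes. Without VAA DSS replicate 3 these shares were 5.94% and 4.68%. The nuclear median of that interaction was -0.37 and 84 of 89 were below 0, and without VAA DSS replicate 3 it was -0.23.

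Under DSS, KO against WT asked what loss of Tert changed in inflamed colon. Cox7a1, Cox6a1 and Atp5sl rose and none of the 102 genes fell, beside 3.21% and 2.46% of all genes (5.67% in either direction). The share of the 102 genes that rose was thus near that of all genes. Cox7a1 averaged 12.9 ± 1.8 scaled CPM in KO DSS libraries and 5.40 ± 1.0 in WT DSS libraries (SD, n = 3 each), a log2 fold change of 1.25 ± 0.23 (edgeR adjusted P = 0.010). Cox6a1 (mm10 chr5:115345642-115348981), the general form beside the muscle form Cox6a2, had 192, 181 and 217 scaled CPM in KO DSS libraries and 147, 131 and 150 in WT DSS libraries, a log2 fold change of 0.47 ± 0.10 (edgeR adjusted P = 0.023). Atp5sl had 23.0, 24.4 and 26.2 against 14.4, 13.6 and 18.1, a log2 fold change of 0.67 ± 0.16 (edgeR adjusted P = 0.031). The groups did not overlap for any of them, which is no further support, as they were called on the same libraries. For the fits below that left out a KO or WT library, the share of all genes called is not given. Fewer calls there cannot be told from fewer calls over all genes. The 3 calls were 0 without WT DSS replicate 2 (Cox7a1 1.12, adjusted P = 0.068; Cox6a1 0.41, 0.14; Atp5sl 0.59, 0.17), 1 without WT DSS replicate 1 or KO DSS replicate 1 or 3 (Cox7a1), 2 without KO DSS replicate 2 (Atp5sl 0.67, 0.081), and 9 without VAA DSS replicate 3, when 6 rose and 3 fell, beside 6.87% and 8.70% of all genes.

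The nuclear median of KO against WT under DSS was 0.07, against -0.01 over all genes, and 63 of 89 were above 0. In complex IV 14 of 15 nuclear subunits were above 0, with a median of 0.20, and the exception was Cox8b. Complex IV summed to 1908, 1705 and 1984 scaled CPM in KO DSS libraries and 1569, 1569 and 1677 in WT DSS libraries, without overlap. Assembly factors leaned the other way, with 6 of 7 below 0, and Ndufaf4 at -0.67 ± 0.29 (edgeR adjusted P = 0.18). Mitochondrial genes had a median of -0.08 and 2 of 13 above 0.

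Markers of other cell types moved with this comparison. Epithelial markers summed to 14803, 12660 and 13411 scaled CPM in KO DSS libraries and 10266, 10092 and 10756 in WT DSS libraries, with 3 of 12 called higher. Of the neutrophil markers, 8 of 10 were called lower. Colonocyte markers summed to 6276, 4151 and 5165 in KO DSS libraries and 3122, 3463 and 4172 in WT DSS libraries, with overlap. Smooth muscle markers summed to 1776, 739 and 2180 in KO DSS libraries and 1140, 719 and 952 in WT DSS libraries, with 0 of 10 called. KO DSS replicate 2 is 1 of the 2 libraries with brown fat markers (196 counts of Ucp1), and the part of those in its Cox7a1 level was not tested. Striated muscle markers summed to 12.3 to 15.6 in KO DSS libraries and 8.81 to 10.8 in WT DSS libraries. Of these, Myh4, a fast myosin, had 1 count in all 15 libraries together and Mb, myoglobin, at most 11 in a library, while Ckm, muscle creatine kinase, had 60 to 83 counts in KO DSS libraries and 44 to 62 in WT DSS libraries. The part of the epithelial, colonocyte, neutrophil, smooth muscle and striated muscle markers in the result was not tested. Under DSS averaged over genotypes, 10 of 10 smooth muscle markers and 11 of 12 colonocyte markers were lower, beside the lower Cox7a1, and their part in it was not tested either.

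KO against VAA under DSS set the missing protein against the inactive one. Here 18 nuclear genes rose and none fell, beside 6.01% and 9.41% of all genes, with a nuclear median of 0.33 against -0.01 over all genes. They were 7 of complex I, 2 of II, 2 of III, 5 of IV and 2 of V. Cox7a1 averaged 12.9 ± 1.8 scaled CPM in KO DSS libraries and 5.15 ± 1.56 in VAA DSS libraries (SD, n = 3 each; log2 fold change 1.32 ± 0.23, edgeR adjusted P = 0.0033). Cox6a1 had 192, 181 and 217 against 143, 141 and 130, a log2 fold change of 0.51 ± 0.10 (edgeR adjusted P = 0.0070). Sdhb had 107, 103 and 121 against 83.3, 78.6 and 65.0, a log2 fold change of 0.54 ± 0.12 (edgeR adjusted P = 0.0090). The groups did not overlap for these 3, which is no further support, as they were called on the same libraries. Replicate 3 was the lowest VAA DSS library for Cox6a1 and Sdhb but not for Cox7a1. Of complex I, Ndufa11, Ndufv3 and Ndufa3, all accessory subunits, rose by 0.58, 0.56 and 0.50, and Cox5b and Cox8a by 0.47 and 0.44. Sdha rose by 0.45 and Uqcr11 and Uqcrh, small subunits of complex III, by 0.43 each, with Atp5h, a stalk subunit of ATP synthase, at 0.49 and Atp5sl at 0.54.

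This comparison leaned on VAA DSS replicate 3. Without it 8 genes rose (Cox7a1, Cox6a1, Cox5b, Sdhb, Ndufa11, Ndufv3, Ndufa3 and Ndufb8), beside 5.01% of all genes, and none fell. The nuclear median was then 0.20, and 82 of 88 nuclear genes had a smaller fold change than with all libraries. Leaving out a KO DSS library gave 7 calls (replicate 1), 11 (replicate 2) or 6 (replicate 3) in place of 18, leaving out VAA DSS replicate 2 gave 45, and in a fit of both groups alone it was 1, Cox7a1. In those fits 8.48%, 7.92%, 9.16%, 21.8% and 3.35% of all genes were called in either direction. Fibroblast markers summed to 1091, 883 and 1323 scaled CPM in KO DSS libraries and 2135, 1392 and 3749 in VAA DSS libraries, with 8 of 10 called lower, 8 of 10 neutrophil markers were called lower and 1 higher, and 7 of 12 epithelial markers were called higher. The part of these in the result was not tested.

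**Figure D5:**
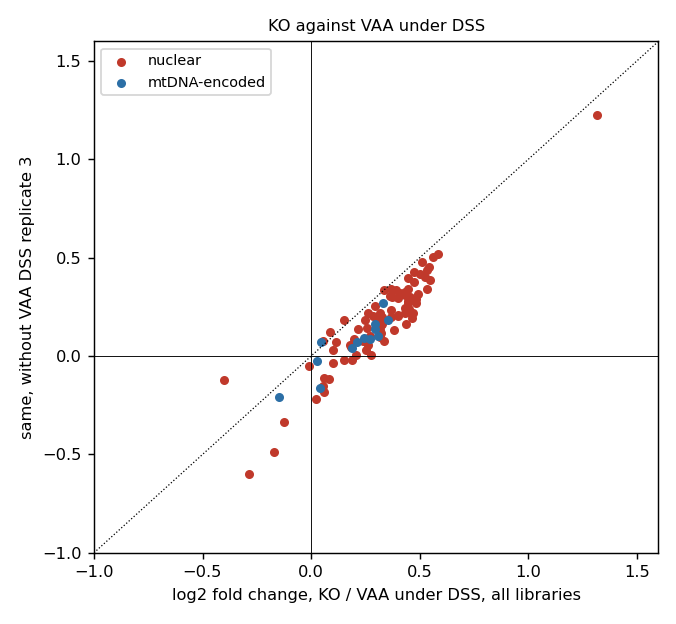
Log2 fold change of KO over VAA under DSS for each gene with all libraries (horizontal) and without VAA DSS replicate 3 (vertical), nuclear genes in red and mitochondrial genes in blue, with the line of equality dotted. Most points lie under the line; Cox7a1 lies at 1.32 and 1.23, and Cox8b, at 2.89 and 3.73, is outside the axes.

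VAA against WT under DSS, which compared the inactive with the active enzyme, gave 0 called genes of 102 by edgeR and 0 by DESeq2, beside 0.00572% of all genes, and 22 members (21.6%) had an unadjusted P under 0.05, beside 16.3% of all genes. The nuclear median was -0.25 and 6 of 89 were above 0. Without VAA DSS replicate 3 the median was -0.11, 16 of 88 were above 0, and 6 of 101 members (5.94%) had an unadjusted P under 0.05, close to the 5.58% of all genes. Without VAA DSS replicate 2 there were 9 calls, beside 4.87% of all genes. Cox7a1 had a log2 fold change of -0.07 ± 0.23 and Cox6a1 of -0.05 ± 0.10.

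Untreated, the genotypes were compared with 2 libraries each, and edgeR called 0 of 102 members and 0% of all genes in each of the 3 pairs. DESeq2 called 0 members in each, and 0 members had an unadjusted P under 0.05 in KO against WT, 0 in KO against VAA and 2 (1.96%, beside 1.33% of all genes) in VAA against WT. Nuclear medians were 0.08, -0.02 and 0.12. Cox7a1 had log2 fold changes of 0.14 ± 0.27 in KO against WT, 0.20 ± 0.27 in KO against VAA and -0.06 ± 0.27 in VAA against WT. Cox6a1 had 0.17 ± 0.13, 0.09 ± 0.13 and 0.08 ± 0.13.

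AA467197, the mouse gene of NMES1, encodes a paralog of NDUFA4 that is known to take its place in complex IV in inflamed cells. It had 309, 198 and 239 scaled CPM in KO DSS libraries against 101 and 182 in KO untreated libraries, a log2 fold change of 0.82 ± 0.24 (edgeR adjusted P = 0.046), a call lost in 8 of 14 settings, among them without KO untreated replicate 1 (0.45, adjusted P = 0.36), KO DSS replicate 1 (0.64, 0.14) or KO DSS replicate 3 (0.84, 0.083). In VAA it had 201, 227 and 190 under DSS against 151 and 212 untreated, and in WT 183, 163 and 182 under DSS against 155 and 133 untreated. In the DSS effect averaged over genotypes AA467197 rose by 0.43 log2 units (edgeR adjusted P = 0.022), a call lost in 3 of 22 settings. Within genotypes, the DSS libraries stood above the untreated ones in KO and WT and overlapped them in VAA. In the same comparisons Ndufa4 had log2 fold changes of 0.39 ± 0.24 in KO, 0.29 ± 0.24 in VAA and 0.91 ± 0.24 in WT, called in WT alone, and in KO against WT under DSS Ndufa4 had -0.43 ± 0.21 and AA467197 0.50, neither called.

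Genes around the chain were taken from lists of the pathway, and their counts in the averaged DSS effect stand beside 22.5% of all genes that rose and 20.0% that fell. Of these lists, 3 of 6 subunits outside the naming rule rose, 7 of 43 other assembly factors rose and 3 fell, and of 16 genes of electron carriers and coenzyme Q 2 rose and 4 fell. Sdhaf1, an assembly factor of complex II, rose by 0.49 ± 0.10 and Higd1a, a small inner membrane protein linked to complex IV, by 0.48 ± 0.06 (edgeR adjusted P of 0.0012 and 6.8e-05). Coq7, an enzyme of coenzyme Q synthesis, rose by 0.63 ± 0.13, while Adck3, a kinase-like protein of the same pathway, fell by 1.62 ± 0.26 on the log2 scale (edgeR adjusted P of 0.0015 and 0.00024). Of 17 genes of mitochondrial DNA replication and transcription 1 rose and 1 fell, and of 18 genes of mitochondrial RNA processing 2 rose and 2 fell. Apart from the 6 subunits outside the naming rule, each of these lists had a smaller share that rose than all genes did.

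Of 11 regulators of mitochondrial gene expression 2 rose and 3 fell in the averaged effect, shares near those of all genes. Ppargc1a, the coactivator PGC-1 alpha, fell by 1.14 ± 0.20 on the log2 scale and Esrrg, an estrogen-related receptor, by 1.06 ± 0.10 (edgeR adjusted P of 0.00044 and 4.1e-06). Esrra, its relative, rose by 0.40 ± 0.09 and Pprc1, another coactivator, by 0.53 ± 0.15 (edgeR adjusted P of 0.0025 and 0.011). Under DSS, Ppargc1a and Esrrg rose in KO against WT, by 1.16 ± 0.31 and 0.66 ± 0.16, and Pprc1 fell by 0.83 ± 0.22 on the log2 scale (edgeR adjusted P of 0.047, 0.034 and 0.048). These calls lie close to the threshold of 0.05. In that comparison 3.21% of all genes rose and 2.46% fell. In KO against VAA under DSS, Ppargc1a rose by 1.36 ± 0.31 (edgeR adjusted P = 0.012), and 6 of 13 genes of the tricarboxylic acid cycle rose and none fell, beside 6.01% of all genes that rose. Without VAA DSS replicate 3, Ppargc1a rose by 1.14 ± 0.31 (edgeR adjusted P = 0.030), and 2 of the 13 rose, Ogdh and Suclg2, beside 5.01% of all genes. In the averaged DSS effect 2 of those 13 rose and 1 fell. In VAA against WT under DSS, in the untreated pairs and in both interactions, edgeR called 0 genes of these lists.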

How the data were processed

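RNA from colon was sequenced as 76-base paired reads from Illumina TruSeq Total RNA libraries, per the labels' protocols, and the submitters' processing notes name kallisto 0.46 and mm10. The sources used here give neither annotation nor strand setting. The authors deposited estimated counts per gene, all whole numbers (32544 genes, 10.6 to 17.5 M per library), and a table of log2 CPM for 17531 genes, which was recomputed from the counts with a prior count of 2 to within 0.0182. All columns were matched to samples by name. Total counts of this size leave genes of a few counts imprecise.

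Counts were fitted with edgeR 4.0.16 in R 4.3.3 (TMM, quasi-likelihood F test, 1 mean per group over 15 libraries, 9 residual degrees of freedom), with Benjamini-Hochberg adjustment over 17477 genes passing filterByExpr. Scaled CPM use the TMM-scaled library size in place of the total. The fit was tested on simulated data. Genes were named by a fixed rule: per comparison, complex and direction the 3 called nuclear genes of smallest P whose mean log2 CPM was 2 or more, genes against the majority, tissue or regulated forms, Sdh genes, called mitochondrial genes, and up to 2 called genes per pathway list and direction. Further genes were named to complete a count. Members, lists and tests were chosen with earlier results of these data known. Alternatives were DESeq2 1.42.0 (size factors and test), no expression filter, library sizes without mitochondrial and identical-value genes, a replicate block, sex as covariate, limma 3.58.1 on the deposited log2 CPM, the compared groups alone, and each library left out. Leaving VAA DSS replicate 3 out of every comparison and summing near-identical copies were added after seeing the data.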

Additional observations from a re-analysis of the deposited data

How the results depend on the processing

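Not all called results were followed gene by gene. Followed were 58, of the genes named by the rule above, picked in part by smallest P, and of AA467197. Over 973 runs, each of 1 result under 1 alternative setting, they kept their call in 791 and turned direction in 0. These counts may not hold for the other called results. The 230 uncalled results followed were called in 30 of 2770 runs. mt-Co2, never called, changed sign with its copy summed, from values near 0 (0.11 to -0.38 for DSS in VAA, 0.13 to -0.11 averaged). In the averaged DSS effect 12 of 19 called genes followed kept their call in every setting. With other settings than leaving a library out, the 4 calls of DSS in KO were 2 without an expression filter, 2 with sex as covariate and 1 with limma. The 18 calls of KO against VAA under DSS were 7 with limma and 1 with the compared groups alone. With the compared groups alone, calls of DSS were 43 in WT and 1 in VAA, and those of KO against WT under DSS were 8. With 1 library left out, the called counts ran from 0 to 22 for DSS in KO, from 2 to 17 in VAA and from 2 to 40 in WT. They ran from 18 to 56 for the averaged effect, from 6 to 45 for KO against VAA under DSS, from 0 to 9 for KO against WT under DSS and from 0 to 9 for VAA against WT under DSS. Calls over all genes moved as well. Without VAA DSS replicate 3 they were 21.6% for DSS in KO (10.7% with all libraries) and 37.5% in WT (26.6%). Under DSS they were 15.6% for KO against WT (5.67%) and 11.6% for KO against VAA (15.4%). Where a count stands without such a share, a change in these genes cannot be told from one in all genes. The cause was not tested.

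Replicate numbers recur across groups, but the 33 pairs with the same number had deviations that correlated between -0.20 and 0.36, with 8 over 0.1, and for 8 of 15 libraries the best match had their number. With the replicate number as a block, calls were 4 for DSS in KO, 5 in VAA, 20 in WT and 32 averaged. They were 3 for KO against WT under DSS, 14 for KO against VAA under DSS, and 0 elsewhere. The share of all genes called with the block is not given here, so the same limit holds for these counts. Genes of under about 30 counts, such as Cox8b, Cox4i2, Ndufa4l2 and Cox6b2, are limited by depth, and DSS was compared with 2 untreated libraries in each genotype.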
